A study of Mus musculus with 9 samples.

Results

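The Ccl21 gene copies are 6 mouse genes, Ccl21a, Ccl21b, Ccl21c, Gm1987, Gm10591 and Gm13304, that encode the chemokine CCL21 or a nearly identical protein. They were taken by gene symbol from a deposited table of 24321 symbols, and all 6 were found. The table holds RNA-seq values of meningeal lymphatic endothelial cells (MLECs), the cells lining the lymphatic vessels of the membranes around the brain. Values are in FPKM, fragments scaled by transcript length and by the mapped fragments of the library. Male C57BL/6 mice, whose age the labels give as 10 weeks, received 5 µL of PBS alone (Control) or with 100000 tumor cells of the mouse lines GL261 (glioma) or B16 (melanoma). The labels name the cisterna magna as the site of injection. The study's text names the subdural space, with other doses, volumes and times, and injection at an age below 10 weeks. The labels are followed here. By the labels, MLECs were collected about 3 weeks after GL261 and about 2 weeks after B16, and the tumor line and this time cannot be told apart. Each group had 3 libraries, each from 10 cells sorted on CD31, CD45 and LYVE-1 out of the pooled meninges of 6 mice. GL261 and B16 libraries together are called tumor-associated.

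CCL21 is made by lymphatic endothelium and by the stroma of lymph nodes. It binds the receptor CCR7 on dendritic cells and T cells, is held on vessel walls by heparan sulfate, and forms the gradients along which these cells enter lymphatic vessels and reach lymph nodes. The mouse genome carries several copies of its gene. In lymph node stroma its expression depends on the lymphotoxin beta receptor and the noncanonical NF-κB pathway.

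All 6 copies lie on chromosome 4 of mm9, the build the values were made on, within 1013.3 kb. In order, Ccl21b spans 41774204 to 41775337 on the plus strand, Gm13304 spans 41985540 to 41986640 on the plus strand and Gm1987 spans 42231045 to 42232176 on the plus strand. They are followed by Ccl21c from 42391951 to 42393082 on the minus strand, Gm10591 from 42625653 to 42626784 on the plus strand and Ccl21a from 42786392 to 42787525 on the minus strand. Each has 4 exons, a coding sequence of 402 bases and a transcript of 837 to 870 bases. The coding sequences differ at 2 positions only, 84 and 194, counted from the A of the start codon. Relative to Ccl21c, both Gm1987 and Ccl21a carry A84T and T194C. The copies therefore fall into a pair with C at position 194, here called C-type (Gm1987 and Ccl21a), and 4 with T, here called T-type (Ccl21c, Gm10591, Gm13304 and Ccl21b). The coding bases 69 to 209 of one copy of each type are shown because they hold every coding difference, with both positions in capitals.
Gm1987: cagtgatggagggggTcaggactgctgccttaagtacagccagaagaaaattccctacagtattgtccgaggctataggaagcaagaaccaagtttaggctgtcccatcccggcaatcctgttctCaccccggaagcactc
Ccl21c: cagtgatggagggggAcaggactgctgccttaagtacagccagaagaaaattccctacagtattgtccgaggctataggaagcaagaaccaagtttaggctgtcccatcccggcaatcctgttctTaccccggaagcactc

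The regions upstream of the genes were almost as alike. Windows of 250 bases were aligned on the start codon and ended at or shortly before the annotated transcript start. In them, the sequences of Gm10591 and Gm13304 equalled that of Ccl21c, that of Ccl21b differed from it at 1 base, and those of Ccl21a and Gm1987 at 2. The promoters of Gm1987 (mm9, chr4:42230793-42231042, plus strand) and Ccl21c (mm9, chr4:42393084-42393333, minus strand) are shown because the levels of both genes moved together below. Capitals mark the letters CATAAAT, which were noticed on reading the sequences.
Gm1987: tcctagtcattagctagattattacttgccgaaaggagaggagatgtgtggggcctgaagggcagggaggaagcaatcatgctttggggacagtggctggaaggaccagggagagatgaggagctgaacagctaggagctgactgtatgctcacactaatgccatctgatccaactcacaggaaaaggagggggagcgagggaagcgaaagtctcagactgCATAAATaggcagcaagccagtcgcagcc
Ccl21c: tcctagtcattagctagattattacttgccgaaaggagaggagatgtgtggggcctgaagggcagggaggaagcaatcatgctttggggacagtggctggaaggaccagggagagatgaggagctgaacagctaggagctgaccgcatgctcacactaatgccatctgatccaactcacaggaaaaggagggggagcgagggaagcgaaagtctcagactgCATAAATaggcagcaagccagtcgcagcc
CATAAAT was in the promoters of all 6 copies and in 2.7% of 22375 promoters of protein-coding genes of the same length, searched on both strands. Those 22375 promoters were placed directly before the annotated starts, not aligned on start codons. The TATA box letters TATAAA were in none of the 6 and in 12.3% of all promoters. The 6 windows are near copies of each other and CATAAAT was picked from them, so these percentages are no test of enrichment. These are matches of letters within this window only.

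The likeness of the transcripts limits what each row can say. Gm1987 and Ccl21a were identical over the 868 transcript bases they share, and 99.7% of the 150-base windows of Ccl21a, the length of 1 read, also occurred in Gm1987. Between C-type and T-type transcripts there were 5 or 6 differences, and 33.7% to 33.8% of 150-base windows were shared. Reads can thus tell the types apart at some places, but hardly any read can tell copies of 1 type apart, so the values of single copies are uncertain. Exon 3, with 183 bases and position 194, matched 8 places in the genome exactly. These were the 6 copies and 2 T-type matches on the unplaced sequence NT_166434 that belong to none of them. On the opposite strand, the annotation also places the gene 4930578G10Rik across Ccl21a and Gm13307 across Ccl21b. Neither is listed in the table, and the library protocol as described does not mark strand.

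The table gives each symbol once, and the values of 4 of the 6 copies have more than 6 significant digits in some libraries, as 50 of 24321 symbols do. Ccl21b has them in 7 libraries, Gm10591 in 5, Gm1987 in 4 and Ccl21a in 2. An average over several entries of 1 symbol would have such digits. If entries were averaged, the sums below are too low, and their ratios between groups depend on how reads were divided among the entries.

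Ccl21 was the most abundant transcript of Control MLECs by FPKM and was lower in every library of both tumors. The summed FPKM of the 6 copies was 58479, 78656 and 66280 in Control libraries 1 to 3, 6082, 1568 and 3236 in GL261 libraries 1 to 3, and 23864, 7164 and 15604 in B16 libraries 1 to 3. Every Control library was above every B16 library, and every B16 library above every GL261 library. Control MLECs had a mean sum of 67805 ± 10175 FPKM (SD, n = 3), GL261 MLECs of 3629 ± 2283 FPKM (SD, n = 3) and B16 MLECs of 15544 ± 8350 FPKM (SD, n = 3). The Control mean was 18.7 times the GL261 mean, 4.36 times the B16 mean and 7.07 times the mean of all 6 tumor-associated libraries. In libraries of sorted cells, fewer cells of a type that makes Ccl21 and less Ccl21 RNA per cell cannot be told apart.

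As a share of all FPKM of a library, the copies made up 8.79%, 11.3% and 10.2% in the Control libraries. The share was 0.724%, 0.177% and 0.421% in the GL261 libraries and 3.14%, 1.02% and 2.04% in the B16 libraries. No other symbol exceeded the sum in any Control library, where the highest other symbol was Tmsb4x, the actin-binding thymosin β4. In GL261 libraries 14, 99 and 31 other symbols were above the sum, and in B16 libraries 1, 7 and 1. The highest symbol was Rnu12 in GL261 library 2 (65812 FPKM) and B16 library 1 (84473 FPKM). It was Rn45s in GL261 library 3 (19622 FPKM) and Tmsb4x in the other tumor-associated libraries. Such rows are part of the library totals and so lower the shares there.

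**Figure D1:**
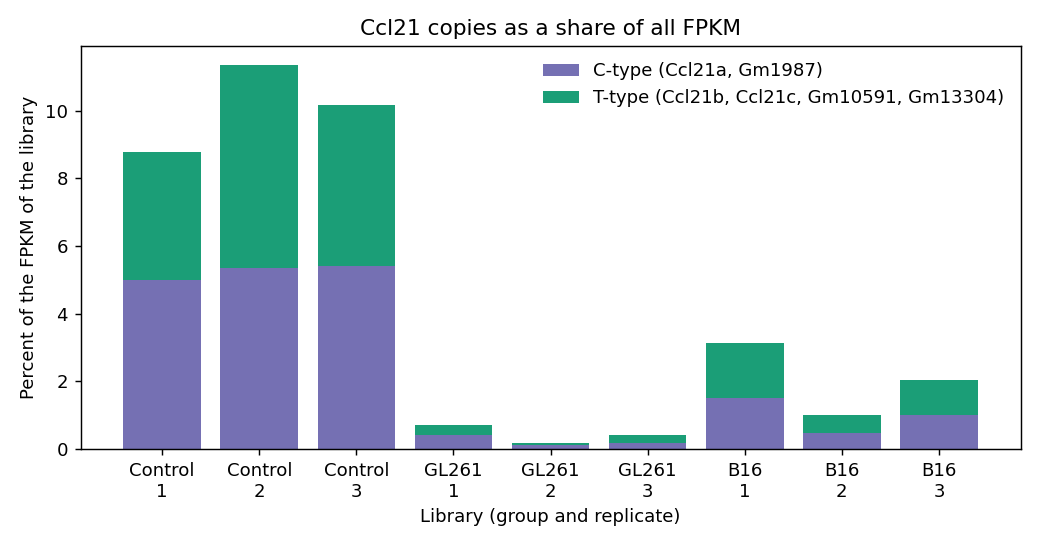
Share of all FPKM of each library taken by the Ccl21 copies, in percent, on an axis from 0, with C-type copies below and T-type copies above in each bar. The 3 Control libraries stand between 8.79% and 11.3%, the B16 libraries between 1.02% and 3.14% and the GL261 libraries between 0.177% and 0.724%.

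Of the C-type copies, Gm1987 held nearly all FPKM. Its values were 33261, 37115 and 35396 FPKM in Control, 3438, 1006 and 1294 FPKM in GL261 and 11435, 3443 and 7674 FPKM in B16 libraries. Gm1987 had the highest FPKM of all symbols in each Control library, while it ranked 36, 149 and 111 in the GL261 libraries and 3, 26 and 8 in the B16 libraries. The Control libraries were close to each other, with a coefficient of variation of 5.48%, against 69.5% in GL261 and 53.2% in B16. The lowest B16 value of Gm1987 exceeded the highest GL261 value by a ratio of 1.001 only.

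Ccl21a, the copy usually described as the lymph node form, was near 0 throughout. It had 2.87, 1.49 and 0.627 FPKM in Control libraries, 0.408, 0.222 and 0.230 FPKM in GL261 libraries and 0.232, 0.138 and 0.277 FPKM in B16 libraries. Its Control values were all above its tumor-associated values, and those of GL261 and B16 overlapped. Because its transcript is identical to that of Gm1987 over the shared bases, the level of either gene alone cannot be read from the low value of Ccl21a and the high one of Gm1987.

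Of the T-type copies, Ccl21c, Gm10591 and Gm13304 had nearly equal values. Ccl21c had 7384, 13803 and 9750 FPKM in Control, 810.2, 142 and 646 FPKM in GL261 and 4187, 1204 and 2652 FPKM in B16 libraries. The gap between the highest and the lowest of the 3 copies was 0.0927% to 11.2% of their mean in a library, and it was below 1% in all Control libraries. Gm10591 ranged from 7406 to 13696 FPKM in Control, 139.6 to 778 FPKM in GL261 and 1319 to 4328 FPKM in B16 libraries. Gm13304 ranged from 7350.5 to 13675 FPKM, 145 to 828 FPKM and 1181 to 3914 FPKM in the same order. For each of these copies the 3 groups did not overlap, with Control highest and GL261 lowest.

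Ccl21b, the remaining T-type copy, did not follow the others. It had 3075, 365 and 1618 FPKM in Control, 228, 136 and 3.00 FPKM in GL261 and 0.0709, 16.7 and 179 FPKM in B16 libraries. All tumor-associated values were below all Control values, while GL261 and B16 overlapped. Its transcript is identical to those of Ccl21c, Gm10591 and Gm13304 over the bases they share, so its own value is as uncertain as theirs. It was lowest in B16 library 1, which had the highest sum of the tumor-associated libraries.

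**Figure D2:**
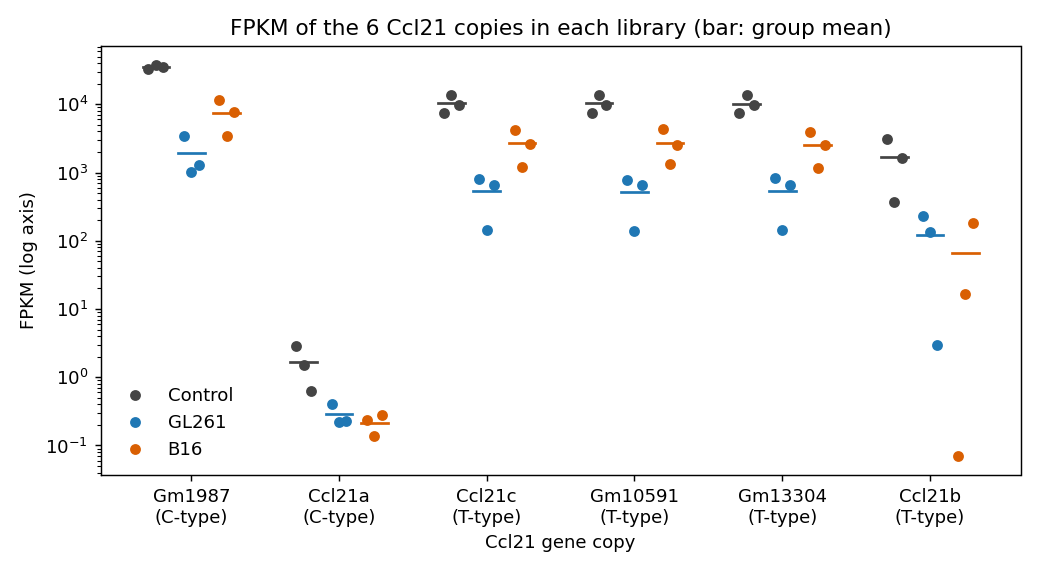
FPKM of each copy in each library on a log axis, with 1 point per library and a bar at the group mean, for Control (grey), GL261 (blue) and B16 (orange). Gm1987, Ccl21c, Gm10591 and Gm13304 show Control above B16 above GL261, Ccl21a stays below 2.88 FPKM in all 9 libraries, and Ccl21b spreads from 0.0709 to 3075 FPKM.

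The division of the sum between the types was similar in the 3 groups. C-type copies held 56.9%, 47.2% and 53.4% of the summed FPKM in Control, 56.5%, 64.2% and 40.0% in GL261 and 47.9%, 48.1% and 49.2% in B16 libraries. The groups overlapped, and the means were 52.5 ± 4.91% (SD, n = 3), 53.6 ± 12.4% (SD, n = 3) and 48.4 ± 0.693% (SD, n = 3). Both types were lower in tumor-associated MLECs. For Control, GL261 and B16 MLECs in turn, the C-type sum was 35259 ± 1930, 1913 ± 1329 and 7517 ± 3998 FPKM (SD, n = 3). In the same order the T-type sum was 32546 ± 8288, 1716 ± 1059 and 8026 ± 4355 FPKM (SD, n = 3). GL261 libraries 2 and 3 had the highest and the lowest C-type share of all 9 libraries. Ccl21b varied most in its part of the sum, from 0.000297% in B16 library 1 to 8.65% in GL261 library 2, and Ccl21a never exceeded 0.0142%.

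**Figure D3:**
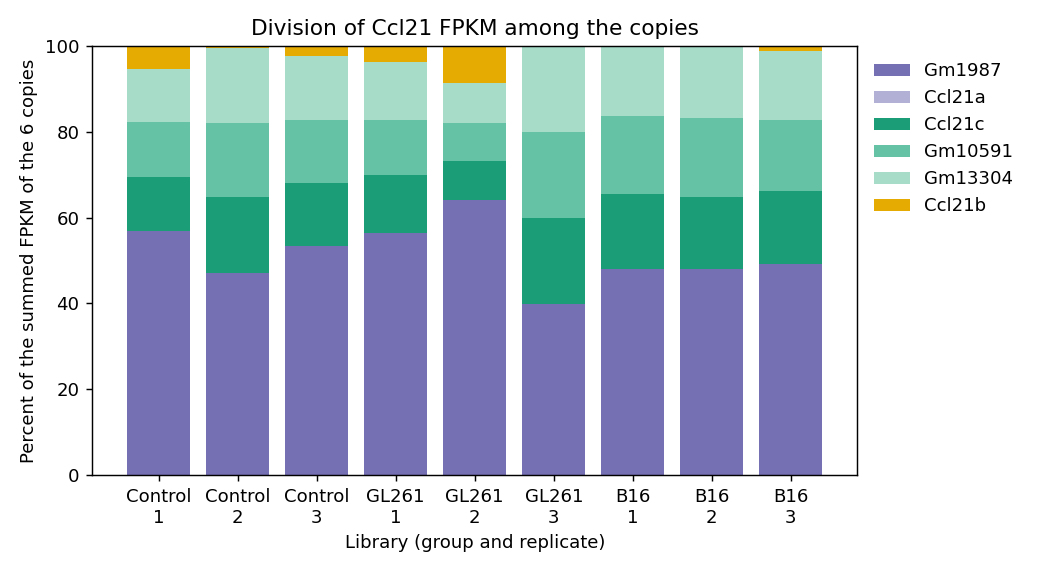
Percent of the summed FPKM of the 6 copies held by each copy in each library, stacked to 100. Gm1987 holds 40.0% to 64.1%, Ccl21c, Gm10591 and Gm13304 take nearly equal parts, and Ccl21a is too small to be seen.

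The copies were tested with limma, which models each gene on the log2(FPKM + 1) scale and takes information on the spread from all genes. Of the 6 copies, 5 passed the filter of at least 1 FPKM in at least 3 libraries, as did 9955 of 24321 symbols. Ccl21a reached 1 FPKM in 2 libraries only and was left out. Copies share reads, so they are not independent of each other. The Control libraries enter 3 of the 4 comparisons below, which are therefore not independent either.

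The first question was whether Ccl21 differed between tumor-associated and Control MLECs. Gm1987 was lower by a log2 difference of -3.40 (standard error 0.61, limma adjusted p = 0.00767 with Benjamini-Hochberg adjustment over all genes tested). Ccl21c was lower by -3.32 (standard error 0.78, limma adjusted p = 0.0320), Gm10591 by -3.31 (standard error 0.78, limma adjusted p = 0.0337) and Gm13304 by -3.33 (standard error 0.76, limma adjusted p = 0.0279). Ccl21b had a larger difference and a larger error, -5.48 with a standard error of 1.51, and was not past the threshold of 0.05 (limma adjusted p = 0.0651). Thus 4 of 5 copies were called lower, where 1.02% of the 9955 genes tested were called lower. The median log2 difference was -3.33 over the 5 copies and 0.20 over all genes tested. All 6 copies, the untested Ccl21a included, were lower in each tumor-associated library than in each Control library, as were 4.44% of the genes tested. The area under the receiver operating curve, was 0 for each copy and gave a power of 1. Of 13553 symbols above 0 in any library, 16.2% were lower with a power above 0.4.

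The call of Gm1987 held with any 1 library left out, with limma adjusted p from 0.00212 to 0.0336. The other 3 calls depended on single libraries and, for Gm10591, on the pseudocount (limma adjusted p = 0.0511 with 0.1 in place of 1). Without Control library 1, 2 or 3, or without GL261 library 1 or 3, 1 copy was called, and without B16 library 2, 2 copies were called. In these fits both tumors form 1 group, so a difference between them counts as spread. With GL261 and B16 as separate groups and their mean set against Control, the same 4 copies were called. Limma adjusted p was then 6.78e-04 for Gm1987, 0.00438 for Ccl21c, 0.00399 for Gm10591 and 0.00393 for Gm13304. Ccl21b was again not called (limma adjusted p = 0.0752).

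In GL261 MLECs the copies were again lower than in Control. Gm1987 differed by -4.42 (standard error 0.45, limma adjusted p = 6.15e-04) on the log2 scale, and its Control mean was 18.4 times its GL261 mean. Ccl21c differed by -4.57 (standard error 0.60, limma adjusted p = 0.00212), Gm10591 by -4.59 (standard error 0.58, limma adjusted p = 0.00189) and Gm13304 by -4.54 (standard error 0.59, limma adjusted p = 0.00200). Ccl21b differed by -4.61 with a standard error of 1.78 and was not called (limma adjusted p = 0.203). So 4 of 5 copies were called lower, against 0.904% of all genes tested (3.49% in either direction), and the same number was called with any 1 library left out. The 6 copies were lower in every GL261 than in every Control library, as were 8.84% of the genes tested. By p-value Gm1987 ranked 10 of 9955 genes, and Gm10591, Gm13304 and Ccl21c ranked 29, 34 and 35.

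In B16 MLECs all 6 copies had lower means than in Control. Gm1987 differed by -2.39 (standard error 0.45, limma adjusted p = 0.0200) and was the only copy called, 1 of 5, against 0.502% of all genes tested called lower and 2.11% called in either direction. Ccl21c, Gm10591 and Gm13304 differed by -2.07, -2.02 and -2.13 (limma adjusted p = 0.106, 0.107 and 0.0921). Ccl21b differed by -6.34 with a standard error of 1.78 (limma adjusted p = 0.0985). All 6 copies were lower in every B16 library than in every Control library, as were 7.0% of the genes tested. No copy was called without Control library 1 or 3 or without B16 library 2 or 3, and 4 copies were called without GL261 library 2. That library is in neither group compared, but it enters the shared estimate of the spread and the filter. Without it 9535 genes were tested.

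Whether the tumors differed from each other was tested directly, and no copy passed the threshold. Gm1987 differed between GL261 and B16 by -2.03 (standard error 0.45, limma adjusted p = 0.216). Ccl21c differed by -2.49, Gm10591 by -2.57 and Gm13304 by -2.41 (limma adjusted p = 0.271, 0.233 and 0.299), and Ccl21b by 1.73 with a standard error of 1.78 (limma adjusted p = 1). In this comparison 1 of 9955 genes was called in either direction, 0.01%, and 0.0% were called lower in GL261. The gene called was B2m, the light chain of MHC class I, named here after its values were seen. At an unadjusted p under 0.05 there were 4 of 5 copies and 548 of all genes, 5.5%. In the order of the libraries by summed FPKM, the lowest B16 library exceeded the highest GL261 library 1.18-fold, less than the 3.33-fold range within B16 and the 3.88-fold range within GL261. Sum and 4 copies were lower in every GL261 than in every B16 library, as were 6.66% of the genes tested.

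**Figure D4:**
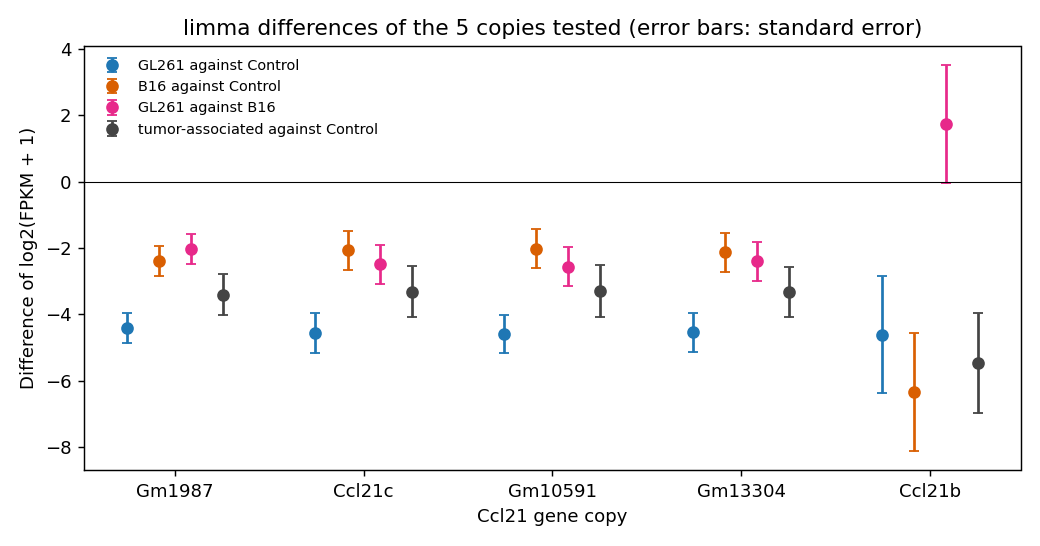
Differences of log2(FPKM + 1) of the 5 copies tested in the 4 comparisons, with limma standard errors as bars. Gm1987, Ccl21c, Gm10591 and Gm13304 lie between -4.59 and -4.42 for GL261 against Control, between -2.39 and -2.02 for B16 against Control and between -2.57 and -2.03 for GL261 against B16, and Ccl21b has the widest bars.

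The Control libraries were also the shallowest. They held 7303, 8688 and 8152 symbols above 0 FPKM, against 10777, 10852 and 9456 in GL261 and 8736, 9258 and 9950 in B16 libraries, and they had the 3 lowest ranks of aligned reads. The gap in depth and the tumor groups cannot be told apart. With the log2 of the aligned reads or of the detected symbols as a covariate, no copy was called by limma in any comparison. Few genes of any kind were called then. Of 9955 genes, aligned reads left 9 called for tumor-associated, 2 for GL261 and 5 for B16 against Control, and 1 for GL261 against B16. Detected symbols left 11, 6, 16 and 1 in the same order. With aligned reads, the copies at an unadjusted limma p under 0.05 were 1 of 5 for tumor-associated against Control (10.7% of all genes), 2 for GL261 against Control (7.68%), 2 for B16 against Control (10.5%) and 1 for GL261 against B16 (6.01%). With detected symbols they were 2 (10.5%), 5 (9.89%), 3 (10.9%) and 4 (6.35%) in the same order. The log2 difference of the sum between tumor-associated and Control MLECs, -3.35 without a covariate, was then -1.21 or -2.02. The copies moved apart. With aligned reads, Gm1987, Ccl21c, Gm10591, Gm13304 and Ccl21b differed by -1.52, -0.64, -0.55, -0.75 and -10.57. With detected symbols they differed by -2.27, -1.62, -1.53, -1.71 and -9.21 in the same order. The 1 copy at an unadjusted limma p under 0.05 with aligned reads was Ccl21b.

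Markers of endothelial type also differed between the groups, in both directions. Of 8 lymphatic endothelial markers 3 were called lower in tumor-associated MLECs, namely Flt4, which encodes VEGFR3, Mmrn1, which encodes multimerin, and Reln, which encodes reelin, with differences of -1.80, -2.56 and -2.35 (limma adjusted p = 0.0160, 0.00543 and 0.0335). Over all genes 1.02% were called lower. The other 5 were not called. Prox1, Nrp2, Pdpn and Lyve1 differed by -2.79, -1.55, -1.48 and -0.36 (limma adjusted p = 0.0509, 0.116, 0.235 and 0.629). Pecam1 went the other way and differed by 0.67 (limma adjusted p = 0.222). Summed over the 8, Control libraries had 2756 to 3280 FPKM, GL261 libraries 1130 to 2616 FPKM and B16 libraries 1336 to 2877 FPKM. Of 10 blood endothelial markers 8 were called higher, led by Ly6c1, Cd34, Flt1 and Esam, with differences of 10.48, 6.38, 6.18 and 6.03 (limma adjusted p = 3.61e-06, 1.66e-04, 3.01e-05 and 1.70e-04). Over all genes 2.9% were called higher. The other two, Cldn5 and Kdr, were not called and differed by -0.63 and -0.34 (limma adjusted p = 0.211 and 0.755). Summed over the 10, Control libraries had 2381 to 3164 FPKM, GL261 libraries 6976 to 9909 FPKM and B16 libraries 6219 to 8657 FPKM. No Control library had a value above 0 for Ly6c1, and none exceeded 0.856 FPKM for Flt1. Both genes thus passed the filter through the tumor-associated libraries alone, so the filter and their tests are not separate evidence. Both are among the 8 called. The part of these markers in the difference of Ccl21 was not tested.

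Set against single lymphatic markers, the sum of the 6 copies was lower in tumor-associated than in Control libraries without overlap for 4 of the 8 markers, and the groups overlapped for the other 4. GL261 libraries alone did not overlap with Control for 7 of 8, all but Prox1, and B16 libraries alone for 4 of 8. Per FPKM of Flt4 it was 302 to 385 in Control and 34.6 to 263 in tumor-associated libraries, without overlap and with a mean log2 difference of -1.53. Per FPKM of Pdpn, which encodes podoplanin, it was 178 to 399 against 14.9 to 142, a difference of -1.86 without overlap. The labels name LYVE-1 and CD31 among the antigens of the sort, and the study's text also names podoplanin, so these 3 markers bear on how the cells were chosen. Per FPKM of Lyve1 the sum was 34.3 to 68.0 against 1.89 to 17.1, and per FPKM of Pecam1, which encodes CD31, it was 199.8 to 443 against 4.92 to 67.1, both without overlap. Per FPKM of Prox1, the transcription factor of lymphatic identity, the groups overlapped, at 1570 to 2796 in Control and 196 to 10055 in tumor-associated libraries, with a mean log2 difference of -0.18. That difference was -1.45 for GL261 and 1.08 for B16 against Control, and Prox1 itself was between 1.87 and 3.72 FPKM in 5 of the tumor-associated libraries. Per FPKM of Mmrn1 the sum was 69.4 to 81.4 in Control, 11.0 to 39.2 with GL261 and 49.5 to 109 with B16. Per FPKM of Reln it was 846 to 1221, 307 to 506 and 313 to 1314 in the same order. Per FPKM of Nrp2, which encodes neuropilin-2, it was 1467 to 2034, 107 to 393 and 854 to 2318. The result thus depended on the marker.

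**Figure D5:**
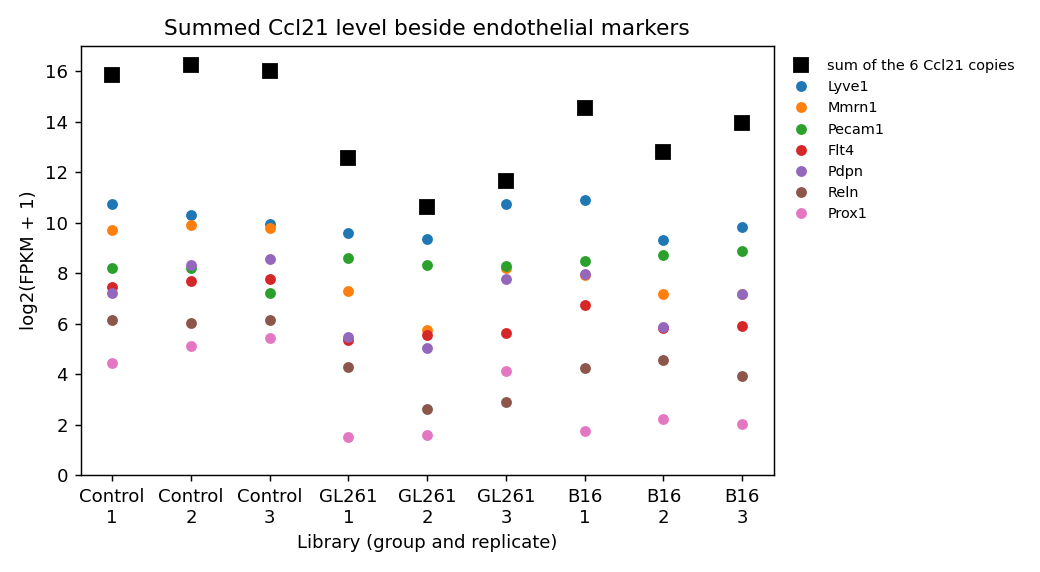
log2(FPKM + 1) of the summed Ccl21 copies (black squares) and of 7 endothelial markers (colored points) in each library. The sum is between 15.8 and 16.3 in Control, 10.6 and 12.6 in GL261 and 12.8 and 14.5 in B16 libraries, while Lyve1 stays in a narrower band and Pecam1 is not lower in tumor-associated libraries.

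Markers of other cell types were not absent. Among 9 leukocyte markers Ptprc, Cd3e and Flt3 were listed at 0 in all 9 libraries. Lyz2 had 324 FPKM in GL261 library 2, 145 FPKM in Control library 2, 60.6 FPKM in Control library 3 and at most 14.8 FPKM elsewhere. Cd68 reached 43.2 FPKM in Control library 1, and Cd79a had 22.4 FPKM in Control library 2 and 0 elsewhere. The 9 markers summed to 43.2 to 183 FPKM per Control library, 12.9 to 351 FPKM per GL261 library and 4.38 to 37.4 FPKM per B16 library. Of 6 markers of fibroblasts and reticular stroma, cells that also make CCL21 in lymph nodes, 1 was tested. This was Dcn, which encodes decorin, at 15.7 to 44.9 FPKM in Control and at most 0.146 FPKM in tumor-associated libraries (log2 difference -4.60, limma adjusted p = 0.00110). Dcn passed the filter through the Control libraries alone, the group where it was high, so the filter and its test are not separate evidence. Control libraries had 16.03 to 47.5 FPKM over the 6, GL261 libraries 0.0851 to 1.30 FPKM and B16 libraries 0 to 3.85 FPKM. Most of the Control sums was Dcn. Of the others, Control libraries had at most 0.135 FPKM of Col1a1, 2.53 FPKM of Col1a2 and 3.96 FPKM of Pdgfrb. Pdgfra was at 0 in Control, and Lum was listed at 0 in all libraries. The part of these 6 markers in the difference of Ccl21 was not tested. Of 6 melanocyte markers 4 were listed at 0 in all libraries and the sum never exceeded 4.07 FPKM, and of 3 glial tumor markers 2 were at 0 in all and the sum never exceeded 3.04 FPKM.

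The partners of CCL21 were barely present. Ccr7, its receptor, was listed at 0 in all 9 libraries. Ccl19, the other CCR7 ligand, had 8.91 FPKM in GL261 library 3, 2.55 FPKM in B16 library 1 and 0 in the others. Ackr4, a scavenger of CCL19 and CCL21, had 0.440 FPKM in Control library 3 and 0 elsewhere, and the chemokine receptor Cxcr3 had 15.2 FPKM in B16 library 3 and 0 elsewhere. None of the 4 passed the filter.

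Genes of the noncanonical NF-κB pathway did not pass the test, with 0 of 11 tested called in either direction in limma for tumor-associated against Control MLECs, where 3.93% of all genes were called. At an unadjusted p under 0.05 there were 2 of the 11, where 19.0% of all genes had one. Ltbr, the lymphotoxin beta receptor, differed by -0.03 (limma adjusted p = 0.980), with 26.8 to 51.1 FPKM in Control libraries. Relb and Nfkb2, which encode the transcription factor subunits at its end, differed by 0.27 and 0.26 (limma adjusted p = 0.859 and 0.918). Map3k14, the kinase NIK, differed by 1.42 (limma adjusted p = 0.334). Of 15 genes tested for the synthesis or core proteins of heparan sulfate, which holds CCL21 on cell surfaces, 0 were called by limma and 3 had an unadjusted p under 0.05, close to the 19.0% of all genes. Of 12 genes tested for other steps of dendritic cell guidance 1 was called, against 3.93% of all genes, and 4 had an unadjusted limma p under 0.05, against 19.0%. The gene called was Cx3cl1, the membrane-bound chemokine fractalkine, which was higher by 3.65 (standard error 0.75, limma adjusted p = 0.0170). Cx3cl1 had 0, 0 and 0.283 FPKM in Control, 10.4, 4.49 and 7.59 FPKM in GL261 and 23.6, 12.4 and 34.8 FPKM in B16 libraries. It passed the filter through the tumor-associated libraries alone, the group where it was high, so the filter and its test are not separate evidence.

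The neighbors of the copies on chromosome 4 did not share their difference as a group. Of 22 neighbors listed 16 were tested and 0 called by limma, with a median log2 difference of -0.30 and 3 genes at an unadjusted p under 0.05, against 19.0% of all genes. The gene nearest to the threshold was Il11ra1, the receptor of interleukin 11, singled out after its values were seen. Il11ra1 had 80.2 to 200.4 FPKM with PBS and 11.0 to 77.4 FPKM with a tumor (log2 difference -2.14, limma adjusted p = 0.0581).

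Across the 9 libraries, 35 of 9950 other genes had a Pearson correlation above 0.9 with the summed Ccl21 FPKM on the log2 scale, and 41 had one below -0.9. The libraries share the group difference and the gap in depth, so these correlations are descriptions. The most alike was Ddx17, an RNA helicase, at 0.99, at 17.2 to 23.4 FPKM for Control and 2.99 to 13.3 FPKM for tumor-associated libraries. Within groups, as deviations from the group means, its correlation was 0.95. Apba2, Map4k2, Ltbp4, Dlg1, Arhgap6, Rasgrp2, Cyp4b1, Glud1 and Slc38a4 followed at 0.94 to 0.96, with correlations within groups of 0.44 to 0.76. These genes were chosen for their likeness to a sum that separates the groups, so their own differences are given without a test. Ltbp4, which encodes a matrix protein that binds latent TGF-β, had 162 to 197 FPKM with PBS and 14.9 to 69.2 FPKM with a tumor. The most opposed genes were Gvin1, an interferon-inducible GTPase, at -0.98, Rpl37, a ribosomal protein, at -0.96, and Sdc4, Dynlt1c and Fam167b at -0.95. Sdc4 encodes syndecan-4, a carrier of heparan sulfate, and had 0 to 0.235 FPKM with PBS and 1.54 to 12.7 FPKM with a tumor.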

How the data were processed

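RNA was amplified from 10 sorted cells per library and sequenced as paired 150-base reads. Per the labels and the methods, the authors trimmed the reads, aligned them to mm9 with TopHat (version 2.0.12) and computed the deposited FPKM with Cufflinks (version 2.2.1). The annotation they used is not given in the sources used here. Counts behind the FPKM are unknown, so no counting interval is given, and how multiply aligned reads were divided among Ccl21 copies is not stated.

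Groups came from the sample titles. FPKM were converted to log2(FPKM + 1), genes with at least 1 FPKM in at least 3 libraries were kept, and limma (version 3.58.1, R 4.3.3) with a trended prior was fitted over all of them with Benjamini-Hochberg adjustment, after being tested on simulated data. Separate contrasts used all 9 libraries in 3 groups. Sums, shares and ratios were described without a test. Sequences and positions were read from the mm9 genome and its GENCODE annotation. Sample labels state that each library came from a separate pool of mice. Genes named are the 6 copies, the 10 genes most and 5 least correlated with their sum, 8 genes of the CCR7 and NF-κB pathways, and up to 4 called genes of each list. Endothelial markers set against the sum, markers at 0, Cldn5, Kdr, Lyz2, Cd68, Cd79a, Tmsb4x, B2m and Il11ra1 were named beyond this rule, after their values were seen. The same holds for Col1a1, Col1a2, Pdgfra, Pdgfrb, Rnu12 and Rn45s. The members and lists were chosen with earlier results of these data known. Alternatives covered pseudocount, scaling, filters, prior, replicate block, depth covariates, the grouping of libraries in the fit and leaving out each library.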

Additional observations from a re-analysis of the deposited data

How the results depend on the processing

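Directions held for Gm1987, Ccl21c, Gm10591 and Gm13304 in all 4 comparisons under the 20 alternatives run for each. Of these, 15 (tumor-associated against Control) or 12 moved the fitted difference and the others left it as it was. Sizes did not hold. For tumor-associated against Control, aligned reads as covariate left -0.64 for Ccl21c, -0.55 for Gm10591 and -0.75 for Gm13304. The scaling moved the median log2 difference of all genes, tumor-associated against Control, from 0.20 to -0.04 when libraries were rescaled without the 6 copies, and the copies stayed lower. For tumor-associated against Control, 3 copies were called with a pseudocount of 0.1, 5 with quantile normalization, 1 with any FPKM above 0 as the filter or without a trended prior, 0 with aligned reads or detected genes as covariate, and 1 to 4 with 1 library left out. For GL261 against Control, 0 were called with either covariate, and 4 to 4 with 1 library left out. For B16 against Control, 0 were called with quantile normalization, with any FPKM above 0, without a trended prior and with either covariate, and 0 to 4 with 1 library left out. For GL261 against B16, 0 were called throughout. With either covariate, only 1 to 16 of all 9955 genes were called in each comparison. The log2 difference of the sum was -1.21 and -2.02 for tumor-associated against Control with aligned reads and detected genes as covariates, and -3.34 for GL261 against Control with aligned reads. Leaving out 1 library gave -3.72 to -2.94, -4.90 to -3.92, -2.67 to -1.80 (B16 against Control) and -2.62 to -1.64 (GL261 against B16). The mean share of FPKM was 1.79%, 0.0798% and 0.365% in Control, GL261 and B16 for the 3 copies named Ccl21 alone. In an alternative chosen after seeing the data, symbols with over 6 digits were counted 2 times, which gave shares of 16.01%, 0.747% and 3.39% and C-type parts of 61.6%, 62.0% and 58.1%. Leaving out 1 library gave shares of 9.47% to 10.8%, 0.299% to 0.573% and 1.53% to 2.59%. It gave C-type parts of 50.3% to 55.1%, 48.3% to 60.3% and 48.0% to 48.6%. Ccl21b turned in GL261 against B16, to -2.87 with aligned reads, -0.36 with detected genes and -0.17 without B16 library 1, and leaving out 1 library gave -0.17 to 3.55. The cause of these changes was not tested.

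Replicate numbers did not pair the libraries. The correlation of deviations from group means was -0.0334 to 0.0443 for same-numbered pairs and -0.0302 to 0.0522 for others. With the replicate number as a block, 4, 4, 1 and 0 copies were called, as without it.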
